A study of Mus musculus with 36 samples.

Results

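MBNL1 is the splicing regulator that expanded CUG repeat RNA draws into nuclear foci in myotonic dystrophy type 1, and both a surplus of the protein and a loss of the RNA act on the same sequestration. Here the left ventricles of 3 mice given an MBNL1 vector (the MBNL1 cohort) were set against those of 3 mice whose repeat RNA had been switched off (the +/–dox cohort), 6 of the 36 libraries of the series, chosen by the tissue and treatment in their labels. The question was which genes the vector left short of the level reached by withdrawal. Every mouse was CUG960, homozygous for TREDT960I (expanded, interrupted CTG repeats in human DMPK sequence behind a tetracycline response element) and hemizygous for MHCrtTA (the reverse transactivator under the α-myosin heavy chain promoter), so the repeat RNA is driven in cardiomyocytes and while doxycycline (dox) is fed. Dox chow began at postnatal day 1 in both cohorts. At 9 weeks the MBNL1 cohort received AAV9 for 3XFLAG-tagged human MBNL1 (under the cardiac human TNNT2 promoter) through the tail vein and stayed on dox, and the +/–dox cohort went to normal chow. Tissue was taken at 21 weeks of age, 12 weeks later. Ventricles of +dox mice (on dox throughout, no vector) and –dox mice (never on dox), 3 each, mark the range in which the 2 cohorts are read. The vector, the human MBNL1, the dox chow and the repeat RNA differ together between the cohorts and cannot be told apart here, since no on-dox library with a control vector was analysed.

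MBNL proteins bind YGCY motifs in pre-mRNA and in 3′ ends of transcripts and act in the nucleus on splicing and in the cytoplasm on mRNA location and decay. In the adult heart they hold the adult splicing pattern of sarcomere, calcium handling and ion channel genes, and their loss to CUG repeats brings fetal isoforms back and has been linked to conduction delay. Gene-level RNA amounts, which are what was measured here, can move with splicing, with decay or with the state of the heart.

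Totals of expected counts (estimates of read pairs per gene by RSEM) ran from 61.8 to 76.3 M in the 6 libraries. Replicate 1 of the MBNL1 cohort stood apart: it listed 16885 genes above 0 against 22244 to 22979 in the other 5, and 3080 of the 19231 tested genes were at 0 in it against 305 to 490. Replicate 3 of each cohort was the only one with high Xist and almost no Ddx3y, and it was also the only one from the second set of library names, so sex and library set are balanced between the cohorts. All 10 cardiomyocyte markers tested had negative log2 fold changes, with a summed level of 72078 to 76902 CPM (expected counts scaled to the same library total after TMM normalization) in MBNL1 libraries and 83807 to 89023 in +/–dox libraries. The sum was 68036 to 74593 CPM in +dox and 78595 to 79892 CPM in –dox libraries. Thus the MBNL1 libraries lay below the –dox libraries and the +/–dox libraries above them, with no overlap. Red blood cell markers summed to 247 to 489.8 CPM against 982 to 1136 CPM, although 0 of 6 passed the test in edgeR or DESeq2 (3 lower at an unadjusted p below 0.05). The lung epithelium list had 0 testable members of 6. In whole tissue, fewer cells of a type and less RNA per cell cannot be told apart. The part of these differences in the results was not tested.

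The MBNL1 ventricles remained different from the +/–dox ventricles at 167 of 19231 genes (0.868%), of which 91 were higher (0.473%) and 76 lower (0.395%) under the vector. In edgeR 3254 of the 19231 genes had an unadjusted p below 0.05, the background for the unadjusted counts of the gene lists below. A call needed a Benjamini-Hochberg adjusted p below 0.05 in edgeR's quasi-likelihood test and a fold change of at least 1.5. The count rested on single libraries: it was 96 (60 higher and 36 lower) without replicate 1 of the MBNL1 cohort, of which 70 were among the 167, 256 without replicate 3 of the MBNL1 cohort, and 82, 57 and 105 without replicates 1, 2 and 3 of the +/–dox cohort. Of the 167, 62 averaged under 100 normalized counts over the 6 libraries, and 12 of these 62 were called again without replicate 1, against 58 of the other 105. Replicates of a cohort were separate animals.

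The genes left different were mostly ones that also differed between +dox and –dox ventricles. Between those, libraries that take no part in the comparison above and that differ in dox chow as well as in repeat RNA, 1461 genes were called (7.6%), 794 higher (4.13%) and 667 lower (3.47%) with the repeat RNA on. The 167 genes held 61 of the 794 (7.68%) and 36 of the 667 (5.4%), in every case on the same side, and 0 on the opposite side. So 97 of the 167 (58.1%) belonged to this repeat set and 70 did not. By direction these were 61 of the 91 higher genes (67%) and 36 of the 76 lower genes (47.4%), a minority of the lower ones. Without replicate 1 of the MBNL1 cohort, 56 of the 97 and 14 of the 70 were called again. Of the 70, 43 averaged under 100 normalized counts.

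**Figure D1:**
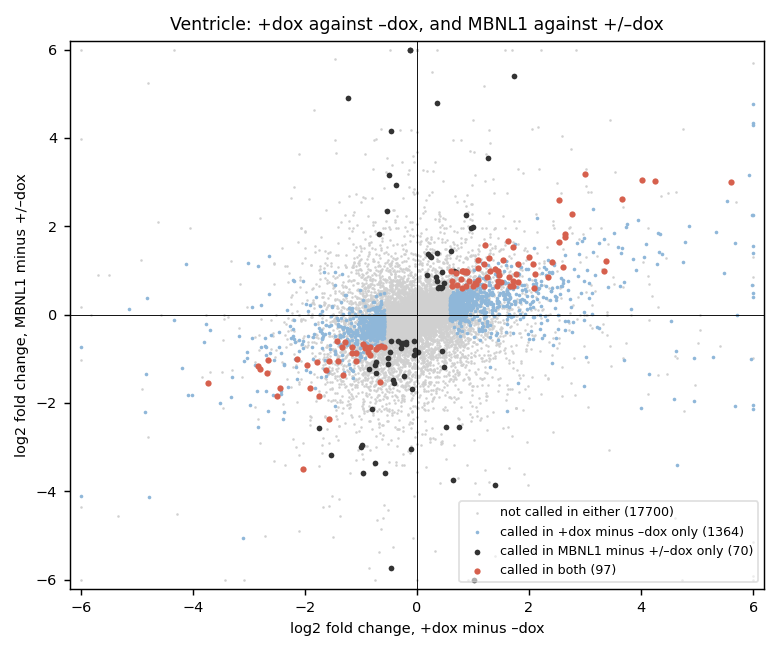
Each point is 1 of 19231 genes, with the log2 fold change of +dox against –dox ventricles on the x axis and that of MBNL1 against +/–dox ventricles on the y axis. The 97 genes called in both comparisons (red) lie only where both fold changes have the same sign, and 48 genes beyond a log2 fold change of 6 are drawn at the edge.

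The repeat set as a whole leaned toward the repeat-on side, well past the genes that were called. The 794 genes higher in +dox had a median log2 fold change of 0.32 (quartiles 0.13 and 0.61) in MBNL1 against +/–dox ventricles, and 664 of them (83.6%) were above 0, beside 45.4% of all genes tested. The 667 genes lower in +dox had a median of -0.31 (quartiles -0.53 and -0.14), and 593 (88.9%) were below 0, beside 54.3% of all genes. The median over all genes was -0.03. In +dox against –dox ventricles the same 2 groups had medians of 1.10 and -0.86. Without replicate 1 of the MBNL1 cohort the medians were 0.37 and -0.28.

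Within the 97 genes, the MBNL1 cohort lay at different places relative to the +dox cohort. Each was picked by a call against +/–dox, which favours places far from the +/–dox level. The counts that follow therefore describe these genes only. The mean of the MBNL1 cohort stood between those of the +/–dox and +dox cohorts for 74 genes and past the +dox mean for 23. For 54 genes the MBNL1 and +dox libraries overlapped, and for 41 the MBNL1 libraries lay in between without touching the +dox ones. The named genes below, 12 in each direction and then the members of the gene lists, hold both patterns. For the 12 in each direction a gap between the MBNL1 and +/–dox libraries was a condition of being named. Such a gap is common with few libraries: it was there for 3784 of the 19231 genes tested (19.7%). The share of all genes with a gap between MBNL1 and +dox libraries was not counted.

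Vxn, which encodes vexin, a protein of neural differentiation, stayed level with the +dox hearts. It stood at 27.5, 25.9 and 26.3 CPM in the 3 MBNL1 libraries, 5.07, 3.91 and 4.21 CPM in the +/–dox libraries, 26.6, 25.7 and 28.3 CPM in the +dox libraries and 5.61, 4.06 and 4.24 CPM in the –dox libraries. The MBNL1 and +dox ranges overlapped, and both lay far above the other 2 cohorts. Its log2 fold change of MBNL1 over +/–dox was 2.59 ± 0.13 (SE; adjusted p = 2.83e-15, edgeR), and all 3 libraries showed it. Vxn (ENSMUSG00000067879.3) lies at chromosome 1, 9601199 to 9627143, on the plus strand of GRCm38.

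Rimkla, the synthetase that joins glutamate to N-acetylaspartate, had the largest fold of the 12 higher genes, 8.19 times. It measured 8.7, 8.11 and 11.2 CPM in MBNL1 libraries against 1.05, 0.926 and 1.43 CPM in +/–dox libraries (log2 fold change 3.03 ± 0.25, adjusted p = 5.76e-09, edgeR). Its +dox libraries reached 17.2, 17.9 and 21.99 CPM and its –dox libraries 0.799, 0.979 and 1.23 CPM, so the MBNL1 libraries sat below every +dox library and above every library without the repeat. Igfbpl1, a relative of the insulin-like growth factor binding proteins, had the same order, with 4.001, 4.66 and 6.28 CPM under MBNL1, 0.835, 0.624 and 0.942 CPM in +/–dox and 7.46, 9.74 and 7.98 CPM in +dox libraries (log2 fold change 2.63 ± 0.26 over +/–dox). Rimkla (ENSMUSG00000048899.8) is at chromosome 4, 119465283 to 119492628, minus strand, where Zmynd12 overlaps it on the other strand, and Igfbpl1 (ENSMUSG00000035551.6) is at chromosome 4, 45809468 to 45826923, minus strand.

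Ccne1 and Dstn stood part of the way up. Ccne1, cyclin E1 of the G1 to S transition, stood at 4.66, 5.07 and 4.302 CPM in MBNL1, 1.56, 1.47 and 1.12 CPM in +/–dox and 10.3, 8.67 and 6.83 CPM in +dox libraries (log2 fold change 1.75 ± 0.26, adjusted p = 0.000171, edgeR). Dstn, destrin, which depolymerizes actin filaments, was at 194, 205 and 199 CPM against 78.1, 81.6 and 84.03 CPM, with 364, 359.5 and 346 CPM in +dox libraries (log2 fold change 1.29 ± 0.15, adjusted p = 2.46e-06, edgeR). For both genes the 3 MBNL1 libraries lay between the +/–dox and the +dox libraries with no overlap on either side. Sptbn4, the βIV spectrin of excitable membranes, was at 4.597, 3.07 and 4.06 CPM against 1.21, 1.36 and 1.35 CPM, inside the wide range of the +dox libraries (2.01, 3.09 and 5.14 CPM). Ccnd2 and Cks1b, named here after their values were seen, are also cell cycle genes and had log2 fold changes of 0.76 and 0.64 (adjusted p = 0.0034 and 0.0386, edgeR). Of Ccne1, Dstn and Sptbn4, Sptbn4 lost its call when 1 library was left out, replicate 1 of the +/–dox cohort (adjusted p = 0.0547, edgeR).

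Enzymes and trafficking genes made up most of the rest of the 12 named for the largest excess. Nudt5, which hydrolyses ADP-sugars, measured 26.2, 22.6 and 25.3 CPM under MBNL1 and 9.23, 9.696 and 12.3 CPM after withdrawal, with 30.1, 28.8 and 30.3 CPM in +dox libraries, and its log2 fold change was 1.24 ± 0.10 (adjusted p = 2.32e-09, edgeR). Necap2, an endocytic coat adaptor, was at 17.04, 24.6 and 25.3 CPM against 10.3, 9.66 and 10.1 CPM, with 38.8, 40.7 and 35.4 CPM in +dox libraries. In both genes the MBNL1 libraries lay between the other 2 cohorts without overlap, nearer to +dox in Nudt5. Erc2 and Syn2, known as presynaptic proteins (active zone scaffold and synapsin), were at 2.66, 3.13 and 3.55 and at 27.6, 37.9 and 32.9 CPM under MBNL1 against 1.58, 1.29 and 1.14 and 21.3, 15.6 and 12.4 CPM in +/–dox libraries. In both genes the +/–dox libraries themselves lay above the –dox libraries, with no overlap. For Erc2 this difference was not called (adjusted p = 0.378, edgeR). Between +/–dox and –dox ventricles 6 of the 19231 genes were called. The –dox libraries were at 0.629, 0.712 and 0.947 CPM for Erc2 and at 5.08, 6.99 and 3.73 CPM for Syn2. For Erc2 the +dox libraries were at 8.71, 8.57 and 6.29 CPM, far above the MBNL1 libraries. Nudt5 shares its locus with Cdc123 and Sec61a2 on the opposite strand, and whether the counting used strand is not given in the sources used here. The Syn2 call was lost without replicate 2 of the MBNL1 cohort and without replicates 2 and 3 of the +/–dox cohort (adjusted p = 0.0545, 0.0828 and 0.0922, edgeR).

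Padi2 and Adap1 complete the 12. Padi2, a peptidylarginine deiminase that turns arginine to citrulline, was at 15.5, 19.7 and 16.8 CPM under MBNL1, 7.15, 5.897 and 3.61 CPM in +/–dox and 19.02, 13.7 and 14.4 CPM in +dox libraries. The MBNL1 and +dox libraries overlapped, and the +/–dox libraries lay below both and, by a narrow gap, above the –dox libraries (3.57, 2.65 and 1.93 CPM). The difference of +/–dox to –dox was not called for Padi2 (adjusted p = 0.396, edgeR). Adap1, an Arf GTPase-activating protein, was at 15.6, 11.8 and 14.1 CPM under MBNL1 and 10.2, 10.2 and 13.97 CPM in +dox libraries, overlapping ranges, against 6.98, 6.43 and 6.496 CPM in +/–dox libraries. Padi2 is far more abundant in the atria of the same cohorts (105 CPM in MBNL1 and 85.05 CPM in +/–dox, means). The atrial identity list summed to 120.5 to 196 CPM in MBNL1 ventricles and 246 to 422 CPM in +/–dox ventricles, and its part was not tested.

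**Figure D2:**
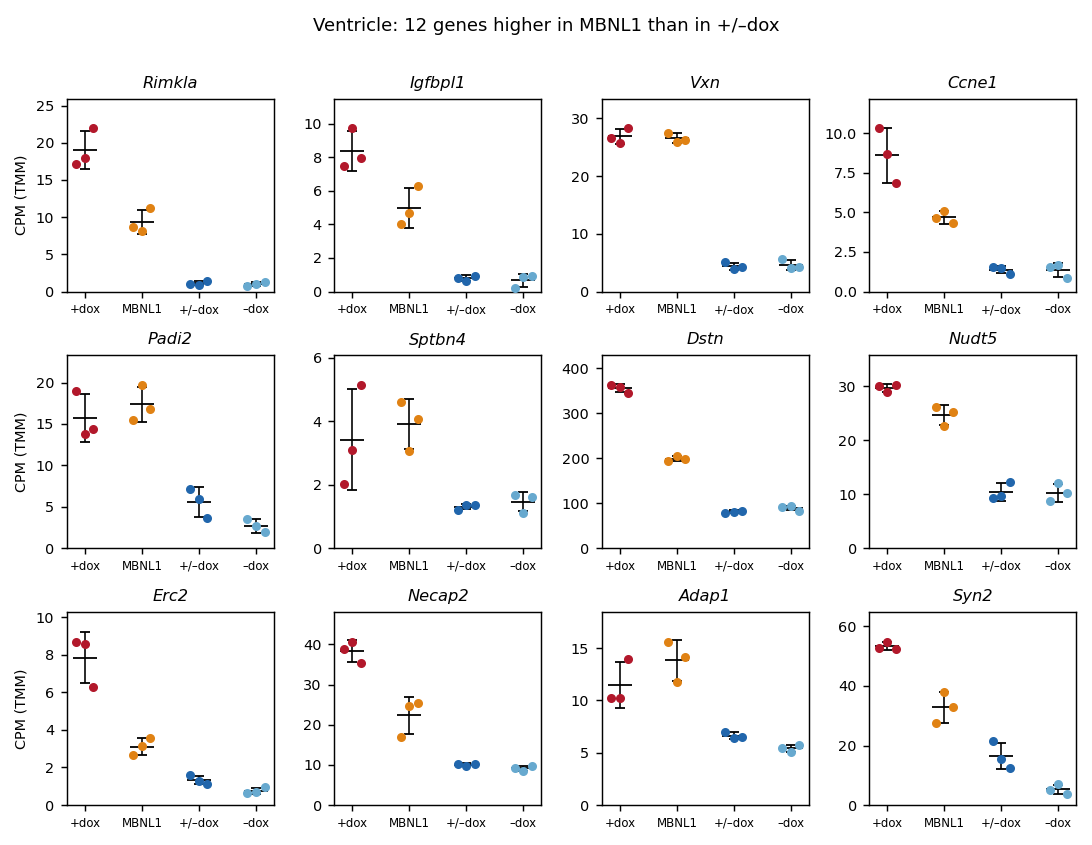
Levels in TMM-normalized CPM (y axis) of the 12 genes with the largest excess in MBNL1 over +/–dox ventricles among those that met the naming rule. They are given by cohort (x axis), with 1 point per library and the mean ± SD of 3. The MBNL1 points of Vxn stand beside the +dox points, and those of Rimkla, Ccne1 and Dstn lie between the +dox and +/–dox points.

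The 12 genes named for the largest deficit include a channel gene of the disease, enzymes of coenzyme Q, acyl-CoA, sugar phosphate and alanine metabolism, and a receptor. Clcn1 encodes the muscle chloride channel whose loss gives the myotonia of this disease in skeletal muscle. In these ventricles it was scarce, at 0.771, 0.869 and 0.712 CPM in MBNL1 libraries, 1.96, 2.65 and 2.26 CPM in +/–dox libraries, 0.273, 0.203 and 0.169 CPM in +dox libraries and 2.65, 2.58 and 3.52 CPM in –dox libraries. No MBNL1 library overlapped the +dox libraries below it or the 6 libraries without the repeat above it, and the log2 fold change to +/–dox was -1.54 ± 0.24 (adjusted p = 0.00026, edgeR).

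Clcn1 and Kbtbd12 were the 2 genes of the lower group whose promoter window held the consensus of MEF2, a transcription factor of muscle genes. The windows run from 250 bases before to 50 after the start of the transcript on GRCm38.p6, from RefSeq. They are shown 5′ to 3′ on the strand of the gene with this pattern in capitals, because both genes are known from muscle. Clcn1 is on the plus strand at chr6:42286435-42286734 and Kbtbd12 on the minus strand at chr6:88627380-88627679. For Clcn1 the start is that of the GENCODE gene, but the GENCODE gene Kbtbd12 begins at 88637950, so that its window lies at a start inside the gene as annotated there.
Clcn1: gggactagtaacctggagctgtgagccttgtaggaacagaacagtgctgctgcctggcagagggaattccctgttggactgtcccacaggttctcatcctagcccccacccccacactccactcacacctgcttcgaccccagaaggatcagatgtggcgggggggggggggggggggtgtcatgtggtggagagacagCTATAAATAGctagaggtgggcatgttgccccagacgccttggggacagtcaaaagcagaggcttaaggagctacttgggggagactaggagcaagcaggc
Kbtbd12: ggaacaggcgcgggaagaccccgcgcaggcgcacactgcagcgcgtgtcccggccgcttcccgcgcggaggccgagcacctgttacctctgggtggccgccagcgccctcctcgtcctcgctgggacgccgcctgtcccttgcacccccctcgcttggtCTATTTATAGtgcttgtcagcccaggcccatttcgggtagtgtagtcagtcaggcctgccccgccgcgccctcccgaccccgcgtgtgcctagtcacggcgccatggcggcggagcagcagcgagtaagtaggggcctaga
The pattern is its own reverse complement, so that a search of both strands finds the same matches. It occurred for 2 of the 46 lower genes with a window in the table (4.35%), for 0 of 61 higher genes and for 86 of 12837 tested genes (0.67%). A match of letters is a description and not a binding site.

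Coq8a, a kinase-like protein needed for coenzyme Q synthesis, is one of the more abundant genes of the group per length of transcript, with a mean of 209.5 TPM (transcript abundance corrected for length) in +/–dox libraries against 0.767 TPM for Clcn1. It stood at 362, 337 and 257 CPM in MBNL1 libraries against 745, 727 and 655 CPM in +/–dox libraries (log2 fold change -1.15 ± 0.18, adjusted p = 0.000401, edgeR). Its +dox libraries were at 112, 82.3 and 65.2 CPM, so all 3 MBNL1 libraries lay above every +dox library and below every +/–dox library. Coq8a (ENSMUSG00000026489.13) is at chromosome 1, 180165238 to 180199602, minus strand, and overlaps Cdc42bpa on the other strand.

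Pfkfb1, Acot7 and Gpt are also enzymes of fuel use. Pfkfb1, an isoform of the enzyme that makes and breaks fructose 2,6-bisphosphate, was at 3.19, 3.13 and 2.11 CPM under MBNL1 and 12.2, 9.96 and 4.58 CPM in +/–dox, both wide ranges (log2 fold change -1.67 ± 0.37, adjusted p = 0.013, edgeR). Acot7, a thioesterase of long-chain acyl-CoA, was tight in both cohorts, at 41.7, 37.6 and 36.7 CPM against 81.7, 77.9 and 79.9 CPM (log2 fold change -1.05 ± 0.12, adjusted p = 2.88e-06, edgeR). Gpt, alanine aminotransferase, was at 20.2, 22.02 and 21.1 CPM against 37.7, 34.8 and 31.04 CPM after withdrawal. The Gpt levels under MBNL1 overlapped the +dox libraries (19.4, 22.2 and 19.3 CPM), whereas those of Acot7 lay above them (23.2, 23.5 and 21.7 CPM). Pfkfb1 lost its call without replicate 3 of the MBNL1 cohort and without replicates 1 and 2 of the +/–dox cohort (adjusted p = 0.0504, 0.0825 and 0.0602, edgeR).

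Receptor, matrix and less studied genes fill the rest of the 12. Adra1a, the α1A-adrenergic receptor, was at 14.6, 14.6 and 10.3 CPM against 28.7, 27.4 and 16.03 CPM, and Lama5, the laminin α5 chain of basement membranes, at 161, 166 and 165 CPM against 264, 289 and 264 CPM. The +dox libraries were at 11.3, 12.97 and 9.95 CPM for Adra1a, overlapping the MBNL1 libraries, and at 130.4, 141 and 109 CPM for Lama5, below them. Sbk2, a kinase with an SH3-binding domain, was at 7.9, 7.098 and 6.01 CPM against 18.8, 14.1 and 13.7 CPM; in the atria its means were 257 and 413 CPM, and the lower sum of atrial identity genes in MBNL1 ventricles moves the same way, its part not tested. Zfand4, Tmem82, Mfsd4b1 and Art5 had log2 fold changes of -1.32, -1.24, -1.02 and -0.74 (adjusted p = 0.0119, 0.00257, 0.00425 and 0.0349, edgeR). Zfand4 lost its call without replicate 2 of the +/–dox cohort (adjusted p = 0.0582, edgeR). Adra1a lost its call without the same libraries as Pfkfb1 (adjusted p = 0.0766, 0.125 and 0.111, edgeR), and Art5 without each of the libraries except replicate 1 of the MBNL1 cohort (adjusted p up to 0.15).

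**Figure D3:**
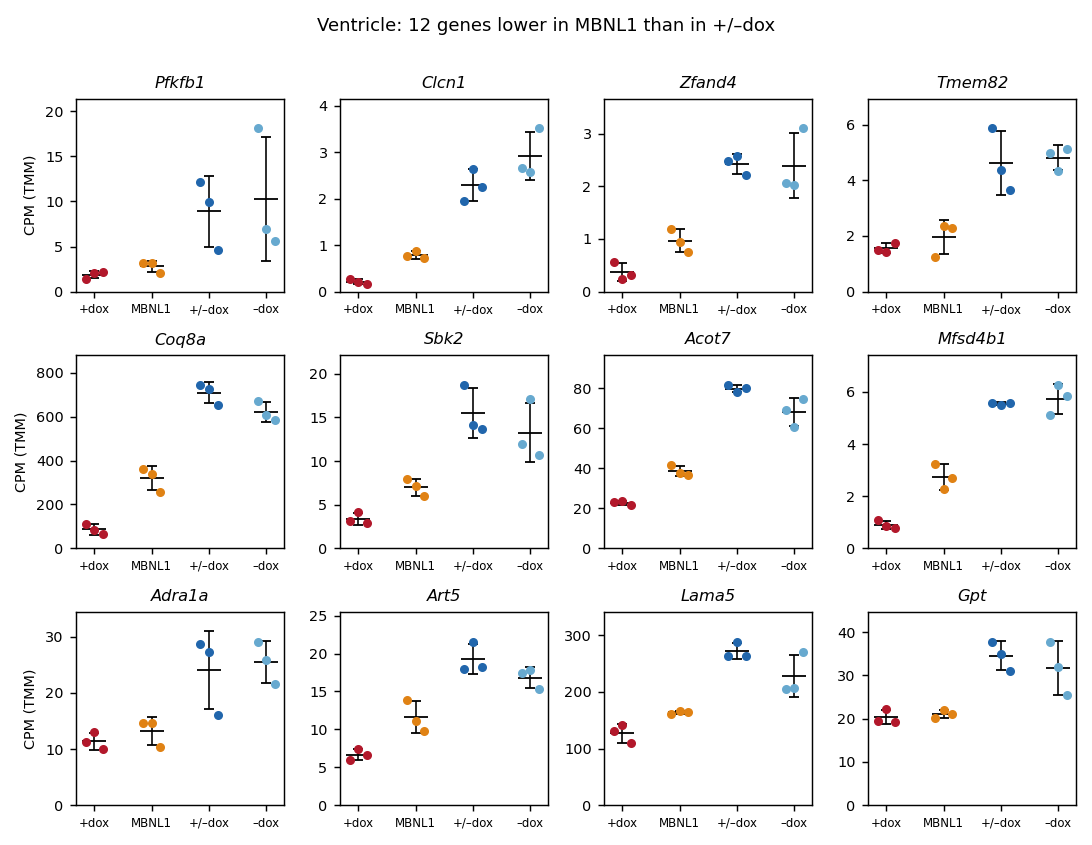
The same plot of TMM-normalized CPM by cohort for the 12 genes with the largest deficit in MBNL1 against +/–dox ventricles among those that met the naming rule. There is 1 point per library, with the mean ± SD of 3. Coq8a and Clcn1 lie between the +dox and +/–dox points under MBNL1, and Gpt lies level with the +dox points.

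Of 36 channel and connexin genes, 1 was higher (Kcna4) and 2 were lower (Clcn1 and Kcnip2), with a median log2 fold change of -0.10 beside -0.03 over all genes. Kcna4 encodes the Kv1.4 channel of the slow transient outward current, and Kcnip2 encodes KChIP2, the partner of the Kv4 channels of the fast one. Kcnip2 was at 43.7, 44.3 and 47.3 CPM in MBNL1 libraries against 74.5, 72.9 and 76.2 CPM in +/–dox libraries (log2 fold change -0.73 ± 0.19, adjusted p = 0.0337, edgeR), and 32.3, 34.1 and 53.6 CPM in +dox libraries, a level the MBNL1 libraries overlapped. The Kcnip2 call was lost when any 1 of the 6 libraries was left out (adjusted p from 0.0523 to 0.122), although the cohorts did not overlap. Cacna1c and Kcnj2, the L-type calcium and the inward rectifier channel, passed the adjusted p alone with log2 fold changes of -0.35 and -0.37, and between +dox and –dox ventricles 3 of the list were called higher and 10 lower.

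In the calcium list, Ryr2 was the called gene among 35, and Asph and Jph2 passed the adjusted p below the fold cutoff. Ryr2, the calcium release channel of the sarcoplasmic reticulum, was at 1566, 1428 and 1448 CPM in MBNL1 libraries and 2443, 2369 and 2181.9 CPM in +/–dox libraries (log2 fold change -0.66 ± 0.07, adjusted p = 5.32e-07, edgeR). With +dox libraries at 1154, 1174 and 1059.8 CPM, the MBNL1 libraries lay in between without overlap. Jph2, junctophilin-2 of the dyad, had a log2 fold change of -0.41 (adjusted p = 0.027, edgeR). The median of the list was -0.07. Ryr2 is at chromosome 13, 11553102 to 12106945, minus strand, and overlaps 3 predicted genes.

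Other muscle lists held single calls. Tnnt2 of the sarcomere list passed the adjusted p alone and was lower. Without replicate 1 of the MBNL1 cohort, 0 members of the sarcomere list were called higher and 1 was called lower. In the sarcomere list (40 tested), Tpm2, β-tropomyosin, was called higher at 64.9, 73.5 and 59.5 CPM against 31.99, 32.9 and 36.2 CPM, but not without replicate 1 of the MBNL1 cohort (adjusted p = 0.0795, edgeR), replicate 2 of that cohort or any 1 of the +/–dox libraries (adjusted p up to 0.111), and 1 of its +dox libraries lay under the +/–dox range. Tnnt3, fast skeletal troponin T, was called lower beside Clcn1 in the skeletal list (21 tested) at near-zero levels, 0, 0.0316 and 0.0427 CPM against 0.152, 0.284 and 0.179 CPM, and lost its call without the same libraries (adjusted p up to 0.155, edgeR). Kbtbd12, a Kelch-repeat protein of muscle, was lower among 22 muscle ubiquitin ligase and autophagy genes, at 73.1, 65.3 and 57.5 CPM against 104, 102 and 88.7 CPM (log2 fold change -0.59 ± 0.11). The fold of Kbtbd12 is near the cutoff, and its call was lost without replicate 3 of the MBNL1 cohort and without replicates 1 and 2 of the +/–dox cohort (log2 fold change -0.51, -0.55 and -0.56, below the fold cutoff). The fetal and hypertrophy list (15 tested), the junction and dystrophin list (24) and the ventricular identity list (8) had 0 called members in edgeR or DESeq2, with 3 higher and 2 lower at an unadjusted p below 0.05.

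Of 58 splicing regulators, Rbfox1 alone passed both cutoffs. Rbfox1, a splicing factor of heart and neurons, was at 14.1, 13.3 and 14.7 CPM under MBNL1 against 28.3, 27.5 and 20.9 CPM in +/–dox (log2 fold change -0.86 ± 0.19, adjusted p = 0.0132, edgeR). Without replicate 1 of the MBNL1 cohort and without replicates 1 and 2 of the +/–dox cohort its adjusted p was 0.0535, 0.0714 and 0.0666 (edgeR). The adrenergic and muscarinic list (27 tested) had Adra1a as its called member, and at the adjusted p alone Adra1b and Chrm2 were lower with log2 fold changes of -0.53 and -0.40, and Prkar2a, a regulatory subunit of protein kinase A, was higher with 0.31. The median of the list was 0.01.

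Few metabolic genes passed both cutoffs. At the adjusted p without the fold cutoff, 264 of the 19231 genes tested were higher and 250 lower, the background for such counts. All 74 nuclear-encoded respiratory chain genes had a negative log2 fold change (median -0.18), with 0 called in edgeR or DESeq2, 48 lower at an unadjusted p below 0.05 and 12 past the adjusted p; without replicate 1 of the MBNL1 cohort the median stayed at -0.18 and 1 passed. Among the 12, Uqcrfs1, the Rieske protein of complex III, had a log2 fold change of -0.33 (adjusted p = 0.00512, edgeR). The list had a median of -0.04 between +dox and –dox ventricles. It summed to 33864 to 36456 CPM in MBNL1, 35539 to 37288 in +dox, 38348 to 39170 in –dox and 40009.5 to 40815 in +/–dox libraries. The +/–dox libraries thus lay above the –dox libraries with no overlap, and the MBNL1 libraries overlapped the +dox ones. The 13 respiratory chain genes of the mitochondrial DNA did not share the sign (8 positive, median 0.07), and mt-Nd6 of complex I passed the adjusted p alone at 0.32. Fatty acid genes (35 of 37 negative, median -0.20) also had 0 called in edgeR and 1 in DESeq2, with 12 lower at an unadjusted p below 0.05, and 11 of the 37 were called lower between +dox and –dox. Etfb, which passes electrons from fatty acid oxidation, passed the adjusted p alone at -0.38. Of 32 glucose and glycogen genes, 27 were negative and Pfkfb1 was called, while Slc2a4, the insulin-responsive glucose transporter GLUT4, was at -0.39 (adjusted p = 0.0106, edgeR). The sum of cardiomyocyte markers, lower in MBNL1 than in +/–dox libraries, moves with these lists and its part was not tested. The Pfkfb1 call depended on single libraries, as given above.

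The lists of interferon-induced, antigen presentation and cell cycle genes held no called member, although Ccne1, Ccnd2 and Cks1b, cell cycle genes outside that list, were called higher as given above. Of 50 interferon-induced genes, 48 had positive log2 fold changes (median 0.55) and 0 were called in edgeR (5 higher at an unadjusted p below 0.05, 1 called in DESeq2), while 20 had been called higher between +dox and –dox ventricles. Their summed level was 460.3, 412 and 2142 CPM in MBNL1 replicates 1, 2 and 3 and 379.9, 351 and 629 CPM in the +/–dox replicates, so replicate 3 of the MBNL1 cohort stood above the rest. The +dox libraries were at 2176, 370.1 and 8312 CPM. The 22 antigen presentation genes (median 0.44, 0 called in edgeR or DESeq2 and 0 at an unadjusted p below 0.05, 13 called higher with the repeat on) summed to 761, 633 and 2188 CPM in MBNL1, 758, 613 and 1310.4 CPM in +/–dox and 1461, 798 and 3238 CPM in +dox libraries. In each of these 3 cohorts replicate 3, the library with high Xist from the second set, was the highest for both lists. In the –dox cohort replicate 3 was such a library too, but replicate 2 was the highest for both lists. The –dox sums were 379, 543 and 358 CPM for interferon-induced and 564, 750 and 601 CPM for antigen presentation genes. The 30 cell cycle genes (median 0.18, 0 called in edgeR or DESeq2 and 3 higher at an unadjusted p below 0.05, 15 called higher with the repeat on) summed to 152, 178 and 156 CPM in MBNL1, 139.5, 136 and 149 CPM in +/–dox and 313, 255 and 205 CPM in +dox libraries, and the MBNL1 libraries were above the +/–dox and below the +dox libraries with no overlap.

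**Figure D4:**
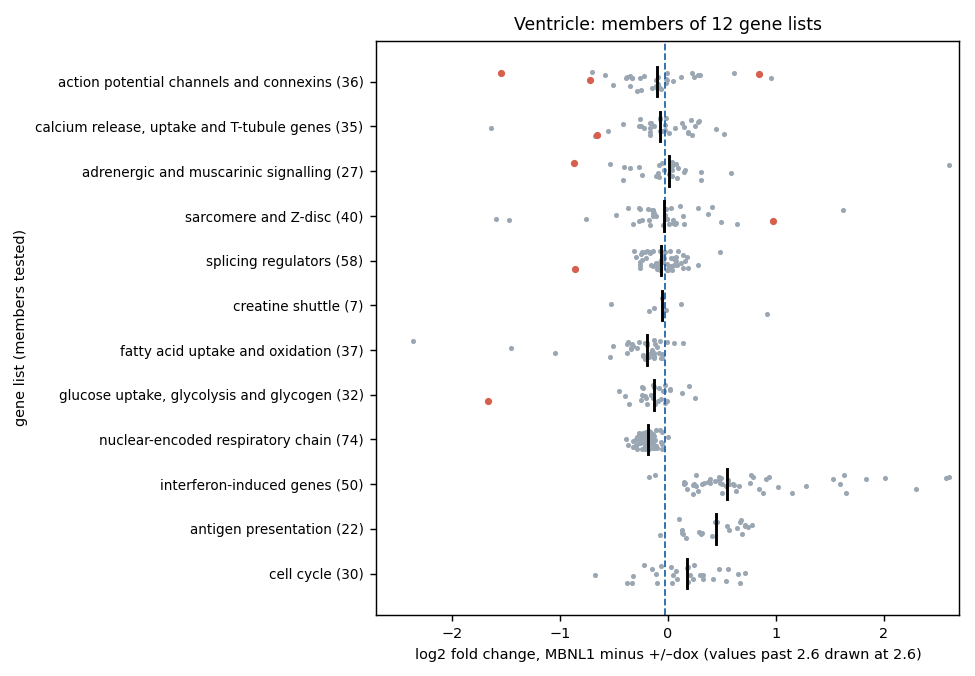
Log2 fold changes of MBNL1 against +/–dox ventricles (x axis) for the tested members of 12 gene lists (y axis, number tested in brackets), with called genes in red, the list median as a black bar and the median of all genes as a dashed line. The respiratory chain members all lie left of 0, and interferon-induced and antigen presentation genes lie mostly right of 0 without a called member.

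The remaining lists gave 0 called members in edgeR and 1 in DESeq2, with 21 higher and 73 lower at an unadjusted p below 0.05. These unadjusted counts are over 409 tested members, and 3254 of the 19231 genes tested had such a p. The lists covered the creatine shuttle (7 tested), stress responses (ATF4, 34 tested; unfolded protein, 21; heat shock, 20), mitochondrial ribosome (78), mitochondrial quality control (16) and mitochondrial DNA genes (13), cytosolic ribosomal proteins (78), matrix (44), TGF-β and BMP signalling (33), nucleic acid sensing (13), clock (19), immediate early (23) and atrial identity genes (10). Their medians ran from -0.42 (immediate early) to 0.14 (matrix). Ribosomal genes leaned down as the respiratory chain genes did. Of the cytosolic list 70 of 78 were negative (median -0.11, 29 lower and 0 higher at an unadjusted p below 0.05). Of the mitochondrial ribosome list 63 of 78 were negative (median -0.09, 19 lower and 2 higher), beside 54.3% of all genes. Herpud1, an endoplasmic reticulum stress gene, passed the adjusted p alone with a log2 fold change of -0.56 (adjusted p = 0.000955, edgeR). Dnajb11, a chaperone of the same list, and Aldh18a1 of the ATF4 list passed it in the other direction, at 0.23 and 0.43. Among markers of other cells, 0 were called in edgeR or DESeq2, with 1 higher and 4 lower at an unadjusted p below 0.05, for endothelium (12), fibroblasts (10), smooth muscle and pericytes (10), macrophages (20), B cells (8), fat (8), Schwann cells (7) and mesothelium (6). Cd3e of the T and NK list (11) was called lower at levels near 0, 0, 0.206 and 0.114 CPM against 0.395, 0.945 and 0.536 CPM.

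The vector cannot be read directly, since human MBNL1 is not among the symbols of the table, and mouse Mbnl1 is no separate measure of it. Mbnl1 was at 282, 230.2 and 227 CPM in MBNL1 libraries against 175, 178 and 176 CPM in +/–dox libraries, a difference of 1.397 times that passed the adjusted p (0.00208, edgeR) but not the fold cutoff. The +dox libraries, which had no vector, were at 218, 206 and 224 CPM, and MBNL1 against +dox had a log2 fold change of 0.19 ± 0.09 (adjusted p = 0.177, edgeR). Mouse Mbnl1 was thus also higher in +dox than in +/–dox libraries without a vector, with no overlap. Its ventricular means were 246 CPM with the MBNL1 vector, 237 CPM with both vectors and 184 CPM with the MBNL2 vector. They were 216 CPM in +dox and 185 CPM in –dox ventricles. How much of any level is human cDNA read as mouse was not tested. Mbnl2 was at 334, 251 and 283 CPM against 264, 263 and 249 CPM (adjusted p = 0.364), and Mbnl3 was below 1 CPM in all 6 libraries. Mouse Dmpk was at 535, 624 and 609 CPM against 600.3, 592 and 580.2 CPM, and its log2 fold change of -0.0038 ± 0.09 had no stable sign. Mbnl1 (ENSMUSG00000027763.13) is at chromosome 3, 60472830 to 60629750, plus strand.

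The study measured a panel of genes by RT-qPCR in the same cohorts, some of them known from earlier work, so its direction is not independent evidence. Kcna4 was left higher, at 2.55, 3.32 and 2.95 CPM against 1.72, 1.47 and 1.71 CPM (log2 fold change 0.84 ± 0.18, adjusted p = 0.00998, edgeR), far below its +dox libraries at 9.71, 8.45 and 7.46 CPM. The Kcna4 call was lost without replicate 2 of the +/–dox cohort (adjusted p = 0.0666, edgeR). Asph, the gene of aspartate β-hydroxylase and junctin, was 393, 386 and 371 CPM against 267, 259 and 274 CPM, and Ckmt2, the mitochondrial creatine kinase, was 1343, 1413 and 1247 CPM against 1922, 1935 and 1902 CPM. Both passed the adjusted p (0.000593 and 0.00998, edgeR) below the fold cutoff, with no overlap of the libraries. Cdnf, a neurotrophic factor of the endoplasmic reticulum, stood at 37.2, 25.01 and 21.5 CPM in MBNL1 libraries, 36.5, 37.4 and 32.4 CPM in +/–dox libraries and 2.76, 2.51 and 2.99 CPM in +dox libraries. The Cdnf difference to +/–dox was not called (log2 fold change -0.34 ± 0.21, adjusted p = 0.412, edgeR), and replicate 1 lay among the +/–dox libraries and the other 2 below them. It was called in limma with quality weights for libraries (log2 fold change -0.60, adjusted p = 0.017). Gja5 and Hcn4, connexin 40 and the pacemaker channel, overlapped between the cohorts (log2 fold changes -0.26 and 0.28, adjusted p = 0.583 and 0.833, edgeR).

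**Figure D5:**
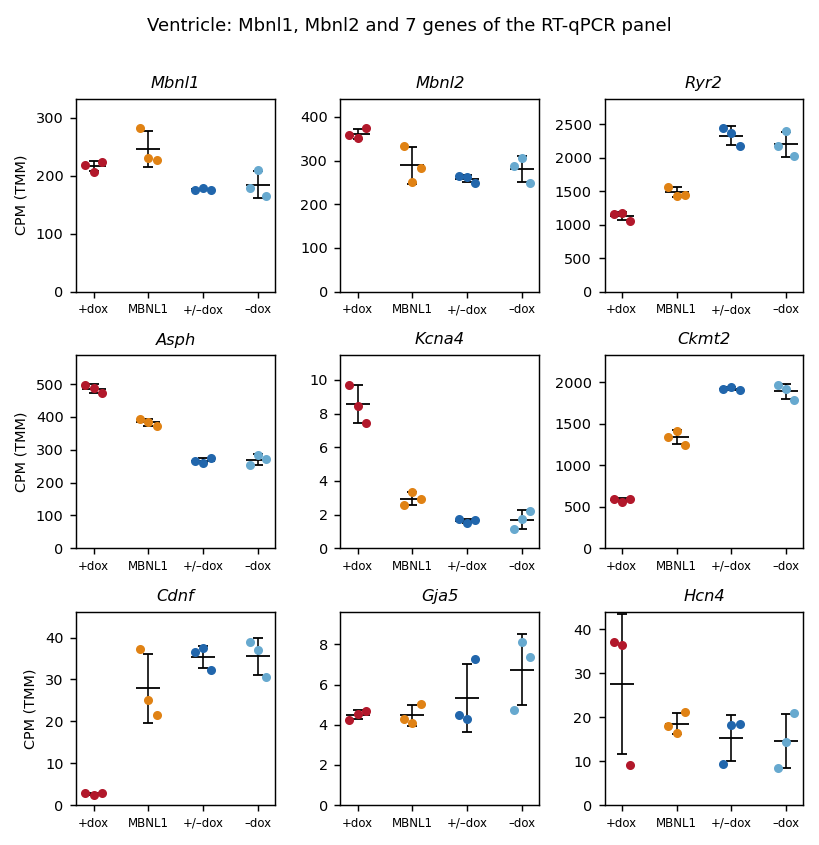
TMM-normalized CPM (y axis) of Mbnl1, Mbnl2 and 7 genes of the RT-qPCR panel by ventricular cohort (x axis), with 1 point per library and the mean ± SD of 3. Ryr2, Asph and Ckmt2 lie between the +dox and +/–dox points under MBNL1, Kcna4 lies close to +/–dox, and Cdnf reaches the +/–dox points in replicate 1.

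The atria of the same animals, which are not independent of the ventricles, had 232 genes called between the 2 cohorts (1.21%). Of the 167 ventricular genes, 51 were called in the same direction there (30.5% of the 167 and 22% of the 232). Tested as an interaction, the ventricular and the atrial difference were unlike at 2 genes in edgeR, Igfbpl1 and Dlg4, with 1323 genes at an unadjusted p below 0.05 and 29 genes in DESeq2. Vxn had atrial means of 44.8 CPM in MBNL1 and 4.85 CPM in +/–dox, and Dstn of 341 and 181 CPM.

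A vector for MBNL2 was given to a further 3 mice in the same way, and the direct test of MBNL1 against MBNL2 ventricles called 3 genes in edgeR and 28 in DESeq2, with 2004 genes at an unadjusted p below 0.05 in edgeR. Cdnf was higher under MBNL1 (log2 fold change 1.69 ± 0.22, adjusted p = 0.000505, edgeR), its MBNL2 libraries being at 11.5, 7.28 and 7.2 CPM. It kept its call without replicate 1 of the MBNL1 cohort. Kbtbd12 and Adh6b were also higher under MBNL1 and did not keep theirs (adjusted p = 0.596 and 0.311, edgeR). Adh6b was low throughout and highest in replicate 1, at 0.975, 0.1897 and 0.199 CPM in the 3 MBNL1 libraries. A p that misses the threshold does not show that the other genes act alike under the 2 vectors. For the genes above, MBNL2 means stood at 25.3 CPM for Vxn, 8.68 CPM for Rimkla, 227 CPM for Coq8a and 1416 CPM for Ryr2, beside MBNL1 means of 26.6, 9.33, 319 and 1481 CPM. With both vectors together the means were 27.5, 6.46, 335 and 1605 CPM. All 3 of those libraries had low Xist and came from the second set of library names. In the MBNL1 and MBNL2 cohorts only replicate 3 came from that set, and it had high Xist. Sex and library set therefore cannot be told apart from the combined vector in these means.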

How the data were processed

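RNA of left ventricles (and of atria of the same cohorts) was extracted with a fibrous tissue kit and made into stranded poly(A) libraries. The authors aligned the paired reads with STAR 2.7.10b to mm10 and deposited, for 55291 genes of 36 libraries, RSEM 1.3.1 expected counts (estimated counts, not normalized) and TPM values (scaled by the authors for transcript length and depth). The strand setting of the counting is not given in the sources used here. All libraries listed belong to the series, and 0 sample columns were left out.

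Here expected counts were rounded and fitted with edgeR 4.0.16 (TMM, filterByExpr, robust quasi-likelihood F test) in R 4.3.3, with 1 mean for each of 12 groups of 3 libraries, over 19231 genes. Calls needed both an adjusted p under 0.05 (Benjamini-Hochberg, over all tested genes) and a fold change of at least 1.5. Fold changes are on the log2 scale with the SE of the fit, and levels are TMM-normalized CPM. Alternatives used DESeq2 1.42.0, limma 3.58.1, other filters and other subsets. The scripts were tested on simulated data. Figures used matplotlib 3.10.9. Promoters and positions come from RefSeq (GRCm38.p6) and a GENCODE annotation of GRCm38, in which 173 of 177 symbols matched.

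Named genes were Mbnl1, Mbnl2, Mbnl3, Dmpk, the RT-qPCR panel of the study (1 gene of it is not reported here), the 12 largest log2 fold changes in each direction among genes called with and without replicate 1 of the MBNL1 cohort that had no overlap between cohorts and a mean of at least 100 normalized counts (symbols of predicted genes left out), and up to 4 called members of each pathway list. Members, lists and rules were chosen with earlier results of these data known.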

Additional observations from a re-analysis of the deposited data

Results flagged for a closer look

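Igfbpl1 and Dlg4 were flagged because the MBNL1 against +/–dox difference was not the same in ventricle and atria by the interaction test (edgeR, Benjamini-Hochberg adjusted). For Dlg4, which encodes the synaptic scaffold PSD-95, the ventricles stood at 5.41, 5.77 and 7.09 CPM in the 3 MBNL1 libraries and 6.45, 5.97 and 5.93 CPM in the +/–dox libraries, and the atria at 40.2, 42.8 and 37.2 and 15.9, 16.7 and 16.3 CPM. The ventricular minus the atrial log2 difference was -1.30 ± 0.17 (adjusted p = 0.00042, edgeR), with the excess under MBNL1 in all 3 atrial libraries and overlapping ventricular libraries. For Igfbpl1 the same difference was 1.86 ± 0.33 (adjusted p = 0.044, edgeR), the atria being at 53.2, 50.01 and 51.1 CPM in MBNL1 and 29.7, 33.5 and 27.4 CPM in +/–dox libraries. Without replicate 1 of the MBNL1 ventricles the adjusted p was 0.00428 for Dlg4 and 0.0286 for Igfbpl1. The cause was not tested.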

How the results depend on the processing

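None of the 167 genes changed direction in a setting that tested it (the stricter filter and the smaller subsets tested fewer genes), but the count moved. It was 284 with DESeq2, 44 with only the 6 libraries, 55 with only the 18 ventricular libraries and 514 with no fold cutoff, and 57 to 256 when 1 library was left out. The 97 genes shared with the repeat set became 153 with DESeq2, 44 with only the ventricular libraries and 43 to 96 when 1 library was left out (56 without replicate 1 and 43 without replicate 2 of the +/–dox cohort). The 2 interaction genes became 29 with DESeq2, and the 3 genes between MBNL1 and MBNL2 became 28 with DESeq2 and 1 without replicate 1 of the MBNL1 cohort. The share of higher calls was 54.5% and moved by over 10 points in no other scaling, though it was 39.1% without replicate 3 of the MBNL1 cohort. Of 31 named genes that were called, 15 were called in each of 17 settings. The sign of the log2 fold change turned for Dmpk (0.0021 with no filter on low counts, 0.0076 with only the 6 libraries, 0.048 with limma voom, and from -0.046 to 0.061 with 1 library left out), for Gja5 (from -0.40 to 0.029 with 1 library left out) and for Mbnl3 (from -0.32 to 0.59). Causes were not tested. In the 6 libraries sex and library set coincide, replicate 3 of each cohort alone having high Xist and coming from the second set. In the MBNL1+MBNL2 cohort all 3 replicates came from the second set with low Xist. Deviations of same-numbered libraries from their cohort means correlated at 0.032, 0.058 and 0.13, so the numbers were not taken as pairs. With the replicate number as a block 201 genes were called and 115 of the repeat set, and with library set as a term 231. At these depths genes under 100 normalized counts rest on few reads, and replicate 1 of the MBNL1 cohort lists many of them at 0.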

Other observations

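Some called genes were at 0 or near it in 1 cohort and are given as counts with no fold. The predicted genes Gm10240 and Gm13370 had identical expected counts in all 12 libraries of the 4 cohorts, so they cannot be told apart: 0, 354 and 248 in MBNL1, 0 in each of the +/–dox, 447, 286 and 919 in +dox and 412, 360 and 640 in –dox ventricles. Both are annotated as processed pseudogenes. The counts after withdrawal were thus below both the repeat-on and the never-on counts, but replicate 1 of the MBNL1 cohort was at 0 as well. Gm10163, also a processed pseudogene, was lowest after withdrawal too. It had 2354, 1481 and 1929 expected counts in MBNL1, 74, 52 and 60 in +/–dox, 2294, 2549 and 697 in +dox and 1117, 1569 and 487 in –dox ventricles. Immediate early genes, transcription factors induced by stimulation, had negative log2 fold changes for 22 of 23 (median -0.42 beside -0.03 over all genes), with 0 called in edgeR or DESeq2 and 6 lower at an unadjusted p below 0.05. These genes were singled out after their values were seen.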
